A study of Mus musculus with 90 samples.

Results

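Cytochrome P450 enzymes of the 2C subfamily are membrane-bound oxygenases of the endoplasmic reticulum that take electrons from NADPH-cytochrome P450 reductase. In liver they are known for the oxidation of drugs, steroids and retinoids and for turning arachidonic acid into epoxides and hydroxy acids, and mice carry many more of these genes than humans do. The account below follows 10 mouse *Cyp2c* genes in liver RNA: *Cyp2c29*, *Cyp2c37*, *Cyp2c38*, *Cyp2c39*, *Cyp2c40*, *Cyp2c44*, *Cyp2c50*, *Cyp2c54*, *Cyp2c55* and *Cyp2c70*. They were taken by symbol from the 27654 gene IDs of the deposited count tables, and all 10 were found, *Cyp2c44* under its current symbol *Cyp2c23* and the ID ENSMUSG00000025197. The other 5 measured genes of the subfamily, *Cyp2c65* to *Cyp2c69*, are given beside them.

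The study asked how caloric restriction (cal. res.) acts on mouse liver through the glucocorticoid receptor (GR) and measured poly(A) RNA of whole liver in 90 libraries, each from 1 mouse on the C57BL/6J background. A diet experiment compared WT livers at ZT12, the hour of lights off and food delivery, on cal. res. (3 libraries) with livers on control diet (ctrl., 3 libraries). On cal. res. the chow fed at night was reduced over the weeks to an end point of 40% fewer calories, while mice on ctrl. ate freely for most of the study and at night only towards its end. For the 3 ctrl. libraries of the diet experiment, the titles name ad libitum feeding and the treatment label names night feeding, and these counts do not show which held. All mice were male. In a second experiment at ZT12, WT mice on ctrl. received corticosterone (CORT, the main glucocorticoid of mice) or served as controls (3 libraries each). The paper describes vehicle injections for its controls, but the titles of these control libraries do not name a vehicle. A time series sampled 6 time points 4 h apart from ZT0 to ZT20 in WT mice (*GR* fl/fl without Cre) and in GR LKO mice (*GR* fl/fl with Alb-Cre, a Cre driven by the albumin promoter and therefore active in hepatocytes, so that the receptor remained in other liver cells). The series held 18 WT and 18 GR LKO libraries on cal. res., 3 per time point and genotype, and 22 WT and 20 GR LKO libraries on ctrl., 3 or 4 per time point and genotype. The tables hold estimated counts per gene that the authors made with Salmon and tximport and deposited without normalisation. Totals per library ran from 36442195 to 39492146 in the diet experiment, from 13739631 to 16077943 in the CORT experiment, from 14235473 to 20788575 in the cal. res. series and from 10057544 to 17089004 in the ctrl. series.

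*Nr3c1*, the gene of GR, separated the genotypes in the time series. On cal. res. it stood at 70.1 to 113 CPM (counts scaled to the library total after TMM, median 93.9) in the 18 WT libraries and at 21.4 to 32.1 CPM (median 24.9) in the 18 GR LKO libraries. The 22 WT libraries on ctrl. held 73.0 to 118 CPM (median 87.2) and the 20 GR LKO libraries 16.2 to 29.0 CPM (median 21.5), so that no library of one genotype reached the range of the other. Hepatocyte markers (*Alb*, *Apoa1*, *Ttr*, *Cps1*, *Hnf4a*, *Asgr1* and *Trf*) were all measured in every group, with *Alb* the most abundant. Libraries that stood apart are described here in 2 respects. Further libraries, apart in single genes or in adipocyte markers, are named below. On ctrl., the ZT20 GR LKO library of replicate 1 and the ZT0 WT library of replicate 3 were low in *Cyp2c37*, *Cyp2c50* and *Cyp2c54*, and the ctrl. average over the day and the interaction are given with and without them. All other results of the ctrl. series include them. In addition, the 8 exocrine pancreas markers summed to 1122 CPM in cal. res. ZT12 WT replicate 3 and to 716 CPM in ctrl. ZT16 WT replicate 2, against at most 4.65 CPM in every other library of the series, and the ZT12 result is given without that library too.

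The genes lie on chromosome 19 (GRCm38, GENCODE annotation). Of the 10, 9 stand in 1 cluster from *Cyp2c55* (ENSMUSG00000025002) at chr19:39007019-39042693 to *Cyp2c70* (ENSMUSG00000060613) at chr19:40153353-40187333. Between them, in order, lie *Cyp2c29* (ENSMUSG00000003053, start 39269405), *Cyp2c38* (ENSMUSG00000032808, 39389556), *Cyp2c39* (ENSMUSG00000025003, 39510862), *Cyp2c40* (ENSMUSG00000025004, 39767071), *Cyp2c37* (ENSMUSG00000042248, 39992424), *Cyp2c54* (ENSMUSG00000067225, 40037940) and *Cyp2c50* (ENSMUSG00000054827, 40089688). *Cyp2c44* lies apart from that cluster at chr19:44005022-44029208. Several of the genes are close copies, which matters for short reads. Of all 31-base words in the transcripts of *Cyp2c40*, 84.6% also occurred in another *Cyp2c* gene, against 47.9% for *Cyp2c50*, 47.4% for *Cyp2c37* and 42.3% for *Cyp2c54*. The shares were 26.5% for *Cyp2c39*, 16.2% for *Cyp2c38*, 8.39% for *Cyp2c29* and 0.662% for *Cyp2c55*, and no such word was shared by *Cyp2c44* or *Cyp2c70*. Counts of *Cyp2c44*, *Cyp2c55* and *Cyp2c70* thus rest on sequence of their own, while the split of reads among *Cyp2c37*, *Cyp2c50* and *Cyp2c54*, and among *Cyp2c40* and *Cyp2c67* to *Cyp2c69*, rests on the assignment by Salmon.

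Per kilobase of the longest transcript, the subfamily was led by *Cyp2c70* and *Cyp2c29* on ctrl. in the diet experiment, with 213 ± 46.6 and 203 ± 33.1 CPM per kb (SD, n = 3). *Cyp2c50* (184 ± 43.9), *Cyp2c67* (178 ± 30.3) and *Cyp2c44* (168 ± 24.4) followed, and these 5 genes lay within their spread. A lower group held *Cyp2c37* (83.8 ± 22.3), *Cyp2c68* (83.7 ± 10.5) and *Cyp2c54* (68.6 ± 21.0), again within their spread. *Cyp2c38* stood at 6.09 ± 3.07 CPM per kb, and *Cyp2c40*, *Cyp2c39* and *Cyp2c55* stood at 0.670 ± 0.292, 0.630 ± 0.453 and 0.440 ± 0.0323. On cal. res. the order began with *Cyp2c29* (362 ± 119) and *Cyp2c37* (308 ± 47.7), and *Cyp2c44* held 79.2 ± 19.3 CPM per kb. The total of the 15 genes was 1189 ± 132 CPM per kb on ctrl. and 1590 ± 108 on cal. res., and the share of *Cyp2c37* in it went from 7.08% to 19.3% while that of *Cyp2c44* went from 14.3% to 5.02%. Other WT livers gave another order. In the ctrl. series it began with *Cyp2c29* (522 ± 126), *Cyp2c50* (395 ± 77.6) and *Cyp2c70* (291 ± 121). The ctrl. livers of the CORT experiment held 448 ± 14.8, 338 ± 31.5 and 332 ± 48.6 of these genes. In the cal. res. series *Cyp2c29* (556 ± 126), *Cyp2c50* (478 ± 112) and *Cyp2c37* (362 ± 103) led.

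The diet experiment asked which of these genes cal. res. changes in WT liver at ZT12. The genes moved both ways: *Cyp2c37*, *Cyp2c38*, *Cyp2c39* and *Cyp2c40* were higher on cal. res., *Cyp2c29* was higher by less, and *Cyp2c44* and *Cyp2c55* were lower. *Cyp2c50* and *Cyp2c54* were not called, nor was *Cyp2c70*, which makes muricholic acids, the hydrophilic bile acids of mice. In all, 7 of the 10 genes were called at an edgeR adjusted p under 0.05, against 47.1% of the 13062 genes tested. Of these, 5 were higher, against 23.5% of all genes tested, and 2 were lower, against 23.6%. The median log2 fold change of the 10 genes was 0.41, against 0.00 for all genes tested, and the median size without sign was 1.08 against 0.37. Scaling by library size alone in place of TMM moved the median of all genes to -0.12 and the share of higher genes among those called from 49.9% to 35.3%, and it called the same 7 genes in the same directions.

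*Cyp2c40*, which hydroxylates arachidonic acid and is described as higher in female than in male liver, showed the largest fold of the 10. It held 0.601, 1.47 and 1.55 CPM in the ctrl. libraries and 28.1, 94.2 and 32.0 CPM in the cal. res. libraries. All 3 cal. res. libraries lay far above all 3 ctrl. libraries, and the log2 fold change was 5.42 ± 0.62 (SE, adjusted p = 0.000747). *Cyp2c39*, an enzyme that oxidises retinoic acid, went from 0.626, 2.09 and 0.711 CPM to 14.4, 12.4 and 11.9 CPM, a log2 fold change of 3.50 ± 0.40 (adjusted p = 0.000758). *Cyp2c38*, its neighbour on the chromosome and an arachidonic acid epoxygenase, went from 12.8, 27.6 and 11.9 CPM to 94.5, 104 and 82.2 CPM (log2 fold change 2.42 ± 0.32, adjusted p = 0.00122). For both genes the groups did not overlap. *Cyp2c37* was the most abundant of the genes with a rise above 2-fold. Its ctrl. libraries held 153, 193 and 112 CPM and its cal. res. libraries 464, 627 and 597 CPM, again without overlap (log2 fold change 1.88 ± 0.21, adjusted p = 0.000684).

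*Cyp2c29*, an epoxygenase known for its induction by phenobarbital, stood at 304, 421 and 359 CPM on ctrl. and at 413, 697 and 828 CPM on cal. res. The lowest cal. res. library lay below the highest ctrl. library, and the log2 fold change was 0.84 ± 0.25 (adjusted p = 0.0283). That call was lost without ctrl. replicate 1 (adjusted p = 0.0973), ctrl. replicate 3 (0.0748), cal. res. replicate 2 (0.0824) or cal. res. replicate 3 (0.0815). With WT livers of the time series at ZT12 in place of these, the diet difference of *Cyp2c29* was -0.04 (adjusted p = 0.862), but there the diet and the batch of libraries cannot be told apart. *Cyp2c44*, an epoxygenase of liver and kidney whose gene lies outside the cluster, held 315, 279 and 371 CPM on ctrl. and 185, 112 and 158 CPM on cal. res. Every cal. res. library was below every ctrl. library (log2 fold change -1.08 ± 0.19, adjusted p = 0.00369). *Cyp2c55* was near the detection limit at 0.952, 0.838 and 0.843 CPM on ctrl. and 0.312, 0.415 and 0.519 CPM on cal. res. The groups did not overlap (log2 fold change -1.07 ± 0.27, adjusted p = 0.0148). The call was lost without ctrl. replicate 1 (adjusted p = 0.0572) or cal. res. replicate 2 (0.0520), and with the time series livers (-1.07, adjusted p = 0.0863).

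The remaining 3 genes were not called. *Cyp2c70* held 311, 327 and 457 CPM on ctrl. and 314, 299.5 and 464 CPM on cal. res., with overlapping groups (log2 fold change -0.02 ± 0.21, adjusted p = 0.936). *Cyp2c54* held 105, 166 and 97.5 CPM on ctrl. and 241, 38.6 and 52.1 CPM on cal. res. (log2 fold change -0.15 ± 0.65, adjusted p = 0.870). One cal. res. library was above and the other 2 were below all ctrl. libraries, and without that library, replicate 1, the log2 fold change was -1.43 (adjusted p = 0.00569). *Cyp2c50* held 287, 425 and 288 CPM on ctrl. and 408, 231 and 250 CPM on cal. res. (log2 fold change -0.17 ± 0.25, adjusted p = 0.605). In the time series libraries at ZT12, the diet difference was 0.45 for *Cyp2c50* (adjusted p = 0.0194) and 1.05 for *Cyp2c54* (adjusted p = 0.00223), the opposite direction. The 7 genes called there thus included these 2 and neither *Cyp2c29* nor *Cyp2c55*, and the share of all genes called there is not given here. Among the other genes of the subfamily, *Cyp2c68* rose from a mean of 144 to 415 CPM (log2 fold change 1.53, adjusted p = 0.000379), *Cyp2c69* from 0.517 to 37.9 CPM (6.21, adjusted p = 0.00338), and *Cyp2c67* fell from 308 to 127 CPM (-1.27, adjusted p = 0.00261). *Cyp2c65* and *Cyp2c66* were too low to test.

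**Figure D1:**
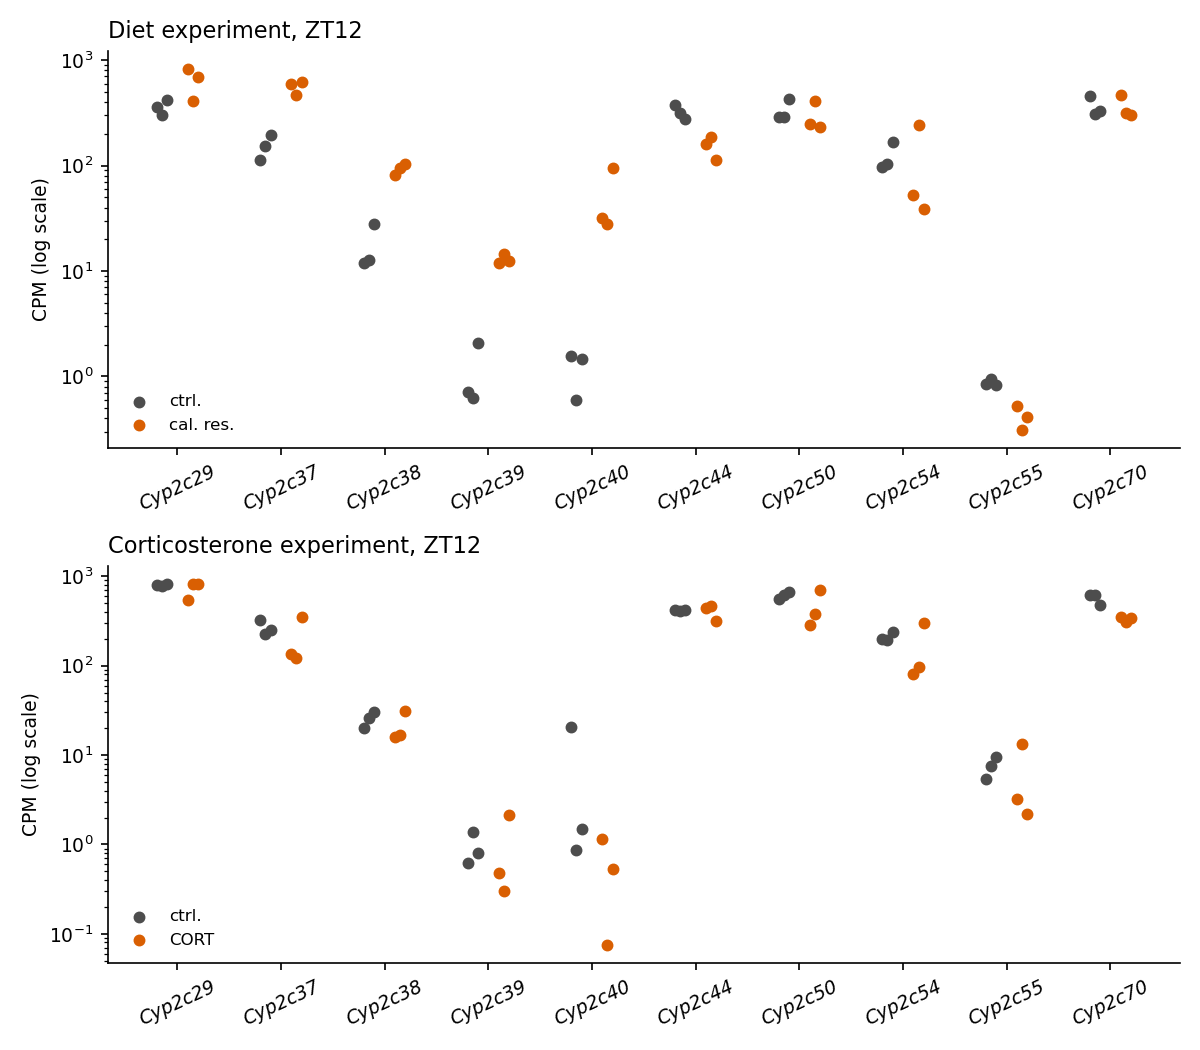
Level of each of the 10 genes (CPM, log axis) in every library of the diet experiment (top, 3 ctrl. and 3 cal. res. livers) and of the CORT experiment (bottom, 3 ctrl. and 3 CORT livers), all WT at ZT12. In the diet experiment the cal. res. points of *Cyp2c37* to *Cyp2c40* lie above the ctrl. points and those of *Cyp2c44* below them, and in the CORT experiment the CORT points of *Cyp2c70* lie below the ctrl. points.

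Summing the counts of close copies before the test takes the assignment of shared reads out of the comparison. *Cyp2c37*, *Cyp2c50* and *Cyp2c54* together went from 609 to 969 CPM (log2 fold change 0.67 ± 0.18, adjusted p = 0.0201). *Cyp2c29*, *Cyp2c38* and *Cyp2c39* together went from 380 to 752 CPM (0.99 ± 0.22, adjusted p = 0.00962). *Cyp2c40* with *Cyp2c67*, *Cyp2c68* and *Cyp2c69* went from 454 to 632 CPM (0.48 ± 0.15, adjusted p = 0.0363), a much smaller change than that of *Cyp2c40* alone. In that set *Cyp2c67* and *Cyp2c68* carried most of the counts, and *Cyp2c67* fell while *Cyp2c40*, *Cyp2c68* and *Cyp2c69* rose. A shift of expression between these copies and a shift in the assignment of their reads cannot be told apart here. Of the 6 units tested this way (4 sums, *Cyp2c44* and *Cyp2c70*), 5 were called, all but *Cyp2c70*. In the fit of single genes, 47.1% of all genes tested were called.

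Hepatocyte markers also differed by diet: 4 of 7 were higher on cal. res., and their sum was 91644, 92402 and 97669 CPM on ctrl. and 165120, 168950 and 174880 CPM on cal. res., most of it *Alb*. The sum of the 6 endothelial markers was 116 to 152 CPM on ctrl. and 194 to 222 CPM on cal. res. (4 of 6 higher, *Clec4g* the most abundant on cal. res. and *Kdr* on ctrl.). Of the 6 stellate cell markers, 2 were higher and 1 lower, and 2 of the 4 tested cholangiocyte markers were higher, with sums of 168 to 213 CPM on ctrl. and 249 to 286 CPM on cal. res. (*Dcn*) and of 46.7 to 49.0 CPM and 38.2 to 58.3 CPM (*Spp1*). Erythrocyte markers, with 1 of 4 lower, summed to 350 to 779 CPM on ctrl. and 145 to 408 CPM on cal. res. (*Hbb-bs*). Of 2 tested adipocyte markers 1 was higher and 1 lower, with sums of 7.67 to 15.1 CPM (*Cidec*) and 10.2 to 11.4 CPM (*Fabp4*). Lymphocyte markers (1 of 3 lower) summed to 1.92 to 3.59 CPM and 0.709 to 0.909 CPM, and neutrophil markers (1 of 1 higher) to 1.70 to 2.63 CPM and 4.62 to 5.76 CPM. In bulk liver, fewer cells of a type and less RNA per cell cannot be told apart, and the part of these markers in the *Cyp2c* results was not tested. Of the 6 measured intestinal markers 3 were at 0 in the diet experiment. Their sum was 128 to 146 CPM on ctrl. (*Fabp2* the most abundant) and 89.7 to 106 CPM on cal. res. (*Lgals4*), with 1 higher and 1 lower of the 2 tested, and the pancreas markers summed to at most 0.576 CPM there.

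The CORT experiment asked whether extra glucocorticoid alone changes these genes in WT liver at ZT12. *Cyp2c70* fell and was the only 1 of the 10 genes called, against 8.11% of the 11523 genes tested. None of the 10 was called higher, against 4.47% of all genes, and 1 was lower, against 3.64%. At an unadjusted p under 0.05 there were 2 of the 10 (26.0% of all genes), and DESeq2 called 1 (10.8% of all genes). The median log2 fold change of the 10 genes was -0.34, against -0.01 for all genes, and scaling by library size alone moved the latter to -0.10 and the share of higher genes among those called from 55.1% to 38.8%, with *Cyp2c70* still the 1 gene called.

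*Cyp2c70* stood at 611, 474 and 625 CPM in the ctrl. libraries and at 312, 339 and 352 CPM in the CORT libraries. All CORT libraries were below all ctrl. libraries (log2 fold change -0.77 ± 0.13, adjusted p = 0.0166). The call was lost without ctrl. replicate 1 (adjusted p = 0.0623), ctrl. replicate 3 (0.0527), CORT replicate 1 (0.0611) or CORT replicate 3 (0.0506), with log2 fold changes from -0.89 to -0.70 over all 6 omissions. *Cyp2c37*, *Cyp2c50* and *Cyp2c54* split the CORT group. *Cyp2c37* held 227, 249 and 324 CPM on ctrl. and 123, 352 and 134 CPM on CORT, and *Cyp2c54* held 196, 239 and 200 CPM on ctrl. and 96.4, 300 and 81.7 CPM on CORT. In all 3 genes CORT replicate 2 was above and the other 2 CORT libraries were below every ctrl. library. Without that library *Cyp2c37* (log2 fold change -1.05, adjusted p = 0.0174), *Cyp2c50* (-0.89, 0.0217) and *Cyp2c54* (-1.25, 0.00514) were called lower with *Cyp2c70*, and with it none of these 3 was.

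*Cyp2c40* was low in 5 of the 6 libraries of this experiment, with 0.861, 1.49 and 20.4 CPM on ctrl. and 0.0757, 0.531 and 1.16 CPM on CORT, and was not called (log2 fold change -3.65 ± 1.35, adjusted p = 0.143). One ctrl. library set the size of that difference. *Cyp2c29* (777, 827 and 790 CPM on ctrl. and 818, 822 and 548 CPM on CORT) and *Cyp2c44* (410, 420 and 421 CPM against 465, 319 and 440 CPM) had overlapping groups, and so did *Cyp2c38*, *Cyp2c39* and *Cyp2c55*. The means of *Cyp2c68* (167 CPM on ctrl., 118 CPM on CORT) gave a log2 fold change of -0.50 (adjusted p = 0.0529), without overlap and without a call. *Cyp2c67* held 212, 320 and 288 CPM on ctrl. and 196, 107 and 202 CPM on CORT, also without overlap and without a call. The sum of *Cyp2c40*, *Cyp2c67*, *Cyp2c68* and *Cyp2c69* went from 450 to 288 CPM (-0.64 ± 0.17, adjusted p = 0.0618).

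The hepatocyte markers, with 1 of 7 higher, summed to 106790, 100830 and 107560 CPM on ctrl. and to 105680, 110530 and 96440 CPM on CORT, led by *Alb*. Kupffer and myeloid markers, with 1 of 8 higher and *Clec4f* the most abundant, summed to 67.3, 80.5 and 93.1 CPM and to 87.7, 133 and 106 CPM. Of the endothelial markers 1 of 6 was lower, with sums of 95, 102 and 120 CPM on ctrl. and 76.9, 85.8 and 91.9 CPM on CORT (*Clec4g* the most abundant). Of the stellate cell markers 1 of 6 was lower (119, 140 and 146 CPM against 114, 142 and 117 CPM, *Dcn*), and of the cholangiocyte markers 1 of 4 tested (35.4, 26.0 and 38.9 CPM against 24.4, 46.8 and 26.4 CPM, *Spp1*, with 1 of 5 at 0). Their part in the *Cyp2c* values was not tested.

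The time series asked what the loss of GR in hepatocytes does to these genes on each diet. Averaged over the 6 time points on cal. res., *Cyp2c70*, *Cyp2c50* and *Cyp2c54* were lower in GR LKO, and *Cyp2c44*, *Cyp2c55* and, by less, *Cyp2c37* were higher. These 6 of 10 genes were called, against 32.9% of the 13041 genes tested, with 3 higher against 15.6% of all genes and 3 lower against 17.3%. The median size of the log2 fold change was 0.36 for the 10 genes and 0.13 for all genes. On ctrl., 5 of 10 were called, against 18.6% of the 12834 genes tested: *Cyp2c38*, *Cyp2c39*, *Cyp2c44* and *Cyp2c55* were higher (4, against 10% of all genes) and *Cyp2c70* was lower (1, against 8.59%). The median sizes were 0.32 for the 10 genes and 0.09 for all genes. Scaling by library size alone called 7 of 10 on cal. res., with *Cyp2c29* in addition (0.19, adjusted p = 0.0476), and 5 of 10 on ctrl., and leaving out the 2 ctrl. libraries that stood apart (chosen after seeing the data) left the same 5 genes called. Library size scaling moved the share of higher genes among all those called from 47.5% to 75.3% on cal. res. and from 53.8% to 81.0% on ctrl. Hepatocyte markers, led by *Alb*, were lower in 4 of 7 on each diet, with sums of 121950 to 179100 CPM (WT) and 109420 to 148590 CPM (GR LKO) on cal. res., and of 79064 to 116440 CPM and 69792 to 103990 CPM on ctrl. Endothelial markers were higher in 6 of 6 on cal. res., where they summed to 149 to 213 CPM (WT) and 168 to 237 CPM (GR LKO), and edgeR called 0 of 6 on ctrl. Of 3 tested adipocyte markers (6 listed, 1 to 4 of them at 0 in a group), 1 was higher on cal. res. and 2 on ctrl. Their sums were 5.69 to 10.4 CPM (WT) and 8.17 to 26.9 CPM (GR LKO) on cal. res., and 4.15 to 16.1 CPM and 8.37 to 88.3 CPM on ctrl., with *Fabp4* the most abundant in WT and *Fabp4*, *Cidec* or *Cfd* in GR LKO. Of 3 tested intestinal markers (6 measured, 2 or 3 of them at 0 in a group, *Fabp2* or *Lgals4* the most abundant), 1 was higher on each diet, with sums of 29.8 to 67.7 CPM (WT) and 33.6 to 76.5 CPM (GR LKO) on cal. res. and of 42.7 to 69.2 CPM and 49.4 to 132 CPM on ctrl. On cal. res., 1 marker each of stellate cells (of 6), cholangiocytes, lymphocytes and erythrocytes (of 4 tested each) was higher, and 1 of 4 erythrocyte markers on ctrl. The part of all these markers in the averages was not tested.

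*Cyp2c70*, the bile acid hydroxylase, was lower without GR on both diets. On ctrl. it ranged from 273 to 948 CPM (median 459.5) in 22 WT libraries and from 175 to 455 CPM (median 273) in 20 GR LKO libraries, an average log2 difference of -0.79 ± 0.12 (adjusted p = 4.64e-06). On cal. res. it ranged from 222 to 545 CPM (median 332) in 18 WT libraries and from 135 to 382 CPM (median 227) in 18 GR LKO libraries, a difference of -0.64 ± 0.08 (adjusted p = 4.32e-07). The ranges overlapped over the day. *Cyp2c70* was lower in GR LKO at all 6 time points on ctrl. and at 5 of 6 on cal. res., where the exception had a log2 difference of 0.02. Differences between time points were not tested. At ZT20 on ctrl. the WT libraries held 948, 891, 451 and 838 CPM and the GR LKO libraries 215, 337 and 390 CPM, without overlap (log2 difference -1.31 ± 0.30), but edgeR did not call this single time point (adjusted p = 0.147), while DESeq2 and the joint fit did.

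*Cyp2c44* moved the other way. On cal. res. it ranged from 160 to 355 CPM (median 267) in WT and from 277 to 536 CPM (median 365) in GR LKO, a difference of 0.50 ± 0.06 (adjusted p = 3.62e-07). On ctrl. the ranges were 298 to 514 CPM (median 384) and 307 to 579 CPM (median 432), a difference of 0.18 ± 0.04 (adjusted p = 0.000539). GR LKO was higher at all 6 time points on cal. res. and at 5 of 6 on ctrl., where the means of the exception, ZT8, were 471 and 472 CPM. *Cyp2c55*, known from intestine as well as liver for hydroxylating arachidonic acid, ranged from 1.14 to 23.1 CPM (median 7.27) in WT and from 8.40 to 40.5 CPM (median 23.6) in GR LKO on cal. res., the largest average difference of the 10 genes on that diet (1.57 ± 0.24, adjusted p = 1.18e-05). On ctrl. it ranged from 2.27 to 30.4 CPM (median 9.79) and from 6.68 to 36 CPM (median 15.7), a difference of 0.74 ± 0.18 (adjusted p = 0.00316). The latter call was lost when replicate 1 of every group was left out (0.52, adjusted p = 0.0910). On ctrl. *Cyp2c55* was higher in GR LKO at 5 of 6 time points and lower at ZT0 (20.4 CPM in WT, 13.5 CPM in GR LKO, log2 difference -0.61).

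**Figure D2:**
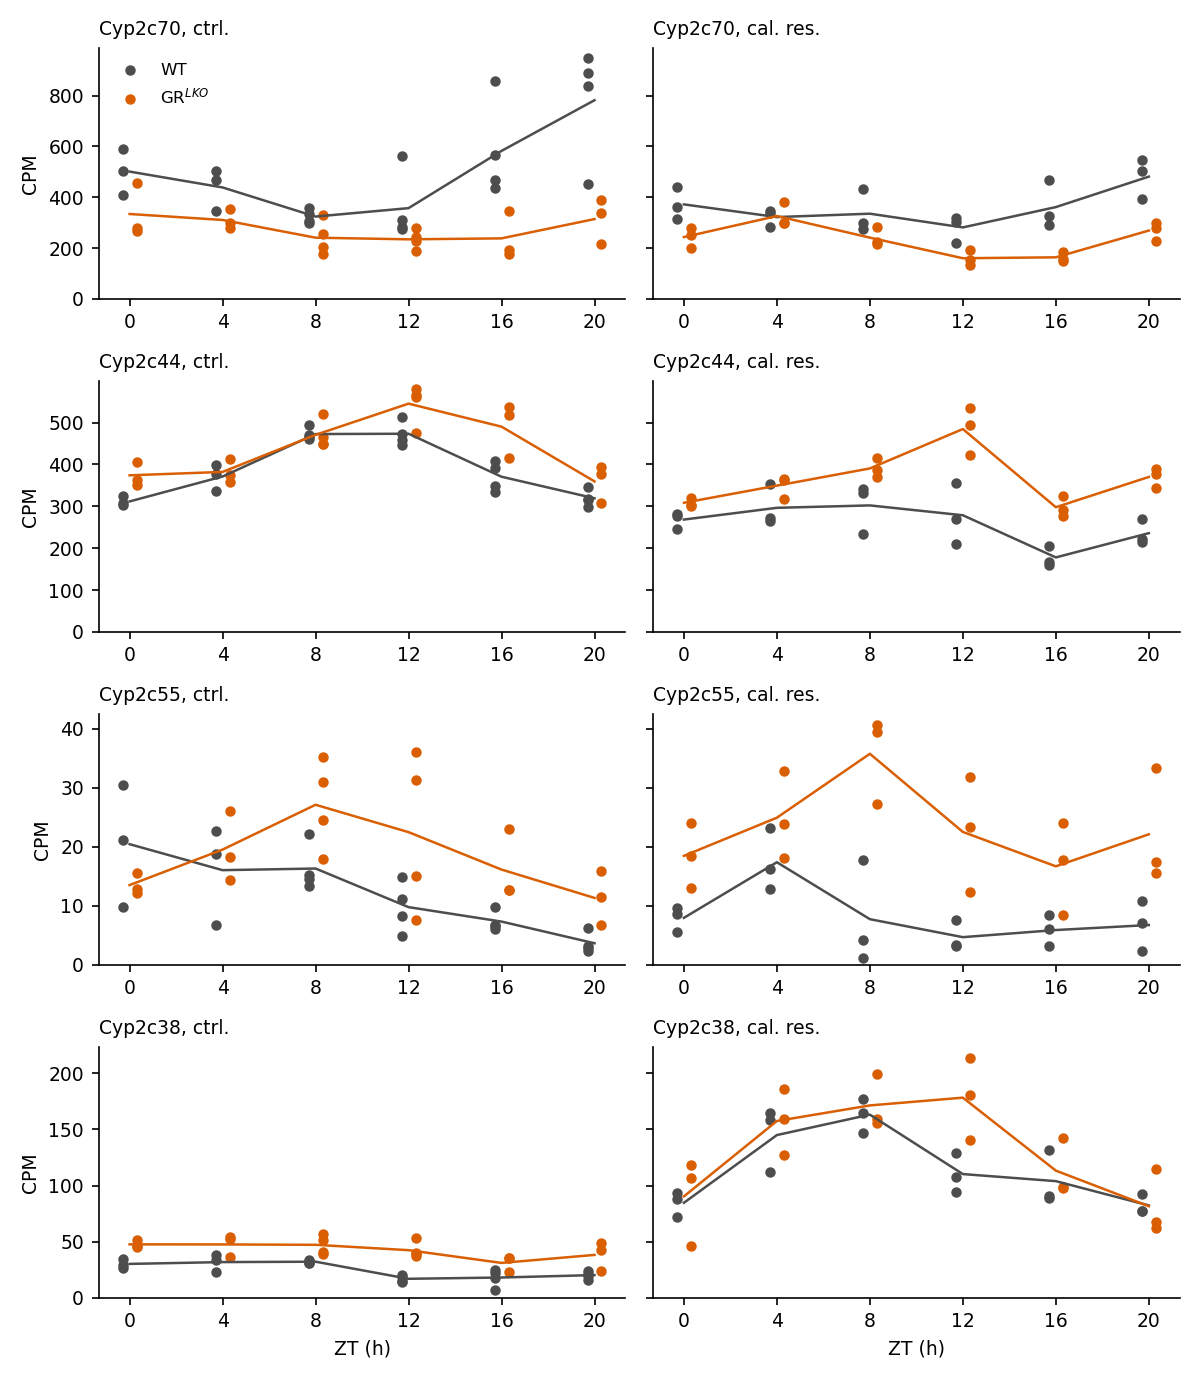
Level (CPM) of *Cyp2c70*, *Cyp2c44*, *Cyp2c55* and *Cyp2c38* over the 6 time points in WT and GR LKO liver, ctrl. on the left and cal. res. on the right, with 1 point per library and a line through the means of 3 or 4 libraries. GR LKO points of *Cyp2c70* lie below WT at all 6 ctrl. time points on average, the means of *Cyp2c55* lie above WT at all 6 cal. res. time points with overlapping points at ZT4 and ZT16, and the 2 diets are separate batches of libraries.

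*Cyp2c38* and *Cyp2c39*, which cal. res. raised in the diet experiment, were raised by the loss of GR on ctrl. *Cyp2c38* ranged from 7.28 to 38.1 CPM (median 23.6) in WT and from 22.6 to 57.0 CPM (median 41.7) in GR LKO on ctrl., a difference of 0.80 ± 0.10 (adjusted p = 4.88e-07). *Cyp2c39* was close to the detection limit, with 0.0799 to 1.72 CPM (median 0.966) in WT and 0.480 to 2.68 CPM (median 1.93) in GR LKO (0.75 ± 0.19, adjusted p = 0.00398). Both were higher in GR LKO at all 6 time points on ctrl. On cal. res. neither was called: *Cyp2c38* ranged from 72.0 to 177 CPM (median 101) and from 46.0 to 213 CPM (median 134), a difference of 0.18 ± 0.11 (adjusted p = 0.203), and *Cyp2c39* from 3.51 to 19.2 CPM (median 10.9) and from 2.36 to 12.1 CPM (median 10.1), a difference of -0.24 ± 0.18 (adjusted p = 0.334).

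*Cyp2c37*, *Cyp2c50* and *Cyp2c54*, whose sequences overlap most among themselves, diverged on cal. res. *Cyp2c50* ranged from 509 to 1175 CPM (median 896) in WT and from 411 to 888 CPM (median 698) in GR LKO, a difference of -0.31 ± 0.05 (adjusted p = 4.65e-06), and *Cyp2c54* from 224 to 591 CPM (median 462) and from 139 to 399 CPM (median 311), a difference of -0.49 ± 0.09 (adjusted p = 0.000106). Both were lower in GR LKO at all 6 time points. *Cyp2c37* ranged from 442 to 1086 CPM (median 593) in WT and from 352 to 1285.5 CPM (median 834) in GR LKO, a difference of 0.30 ± 0.11 (adjusted p = 0.0402), and that call was lost without replicate 1 (adjusted p = 0.0660) or replicate 3 (0.328) of every group, and without the low-count filter (0.0503). Summed, the 3 genes went from 1949 CPM (WT) to 1832 CPM without GR (difference -0.09 ± 0.06, adjusted p = 0.276). A shift of expression between these copies and a shift in the assignment of their reads cannot be told apart from these counts.

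On ctrl. the same 3 genes were not called in the average over the day, with differences of -0.05 ± 0.19 for *Cyp2c37* (adjusted p = 0.906), -0.17 ± 0.15 for *Cyp2c50* (0.507) and -0.17 ± 0.18 for *Cyp2c54* (0.600). Without the 2 libraries that stood apart the differences were -0.03 (adjusted p = 0.894), -0.14 (0.0612) and -0.14 (0.253). Those libraries held 17.6 and 94.4 CPM of *Cyp2c37*, 84.9 and 282 CPM of *Cyp2c50*, and 18.4 and 83.2 CPM of *Cyp2c54*, for ctrl. ZT20 GR LKO replicate 1 and ctrl. ZT0 WT replicate 3. *Cyp2c29* was 312 CPM in the first, its lowest value in the series. Across the 42 ctrl. libraries the log2 CPM of *Cyp2c50* and *Cyp2c54* had a Pearson r of 0.99 (Spearman rho 0.92), *Cyp2c37* and *Cyp2c54* 0.96 (rho 0.83) and *Cyp2c37* and *Cyp2c50* 0.95 (rho 0.80), as a description over libraries that share genotypes and time points and include the 2 that stood apart. Over the 36 cal. res. libraries r was 0.85 for *Cyp2c50* and *Cyp2c54* (rho 0.87) and -0.28 for *Cyp2c37* and *Cyp2c50* (rho -0.34). *Cyp2c29* itself was not called in either average (0.11 ± 0.08 on cal. res., adjusted p = 0.303, and -0.13 ± 0.10 on ctrl., adjusted p = 0.410).

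The difference between the diets in the effect of GR loss was tested as an interaction over all 78 libraries of the series. A shift between batches that is common to both genotypes drops out of this test. Each diet is a batch of its own, so a GR effect that differs by batch cannot be told apart from one that differs by diet. The interaction was called for 3 of 10 genes, against 3.01% of the 13376 genes tested. *Cyp2c44* was more raised on cal. res. than on ctrl. (1 higher, against 0.994%), with a log2 difference of 0.32 ± 0.07 (adjusted p = 0.00390). *Cyp2c38* (-0.62 ± 0.15, adjusted p = 0.0127) and *Cyp2c39* (-0.98 ± 0.26, adjusted p = 0.0208) had the lower difference on cal. res. (2 lower, against 2.02%). Without the 2 ctrl. libraries that stood apart, the same 3 genes were called, at 0.31 (adjusted p = 0.00673), -0.65 (0.00634) and -0.97 (0.0206). None of the 3 was called without replicate 1 of every group (adjusted p = 0.175, 0.0755 and 0.181), and *Cyp2c44* alone was called without replicate 2 or without replicate 3. Without replicate 2 the adjusted p was 0.0893 for *Cyp2c38* and 0.123 for *Cyp2c39*, and without replicate 3 it was 0.103 and 0.0506. *Cyp2c55*, in spite of the larger value on cal. res., did not pass (0.83 ± 0.30, adjusted p = 0.135), nor did *Cyp2c70* (0.14 ± 0.15, adjusted p = 0.709). Of the cell type markers, edgeR called 1 of 4 tested erythrocyte markers, which was higher, and its part was not tested.

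Among single time points on cal. res., edgeR called genes at the hour of food delivery and in the night after it, and DESeq2 called some at ZT0 and ZT4 as well. At ZT12, 8 of 10 genes were called, against 15.3% of the 11759 genes tested. *Cyp2c55* held 3.23, 7.53 and 3.31 CPM in WT and 23.4, 12.4 and 31.8 CPM in GR LKO (log2 difference 2.27 ± 0.44, adjusted p = 0.0155), and *Cyp2c44* held 211, 355 and 270 CPM and 536, 495 and 423 CPM (0.79 ± 0.19, adjusted p = 0.0315). *Cyp2c29* held 754, 702 and 867 CPM and 1186, 1080 and 1204.5 CPM (0.57 ± 0.10, adjusted p = 0.0121). In these 3 genes every GR LKO library was above every WT library, as it was for *Cyp2c37* (0.68, adjusted p = 0.0376) and *Cyp2c38* (0.69, adjusted p = 0.0394). *Cyp2c70* held 303, 222 and 319 CPM in WT and 193, 135 and 153 CPM in GR LKO (-0.82 ± 0.18, adjusted p = 0.0238). It was lower without overlap, and so were *Cyp2c54* (-0.67, adjusted p = 0.0287) and *Cyp2c50* (-0.33, adjusted p = 0.0367). The groups did not overlap in 9 of the 10 genes. The share of all genes tested without overlap is not given here, so this count cannot be set against other genes.

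These ZT12 calls stood close to the threshold. Omitting a WT library left 2 of the 8 called (replicate 1), 5 (replicate 2) or 2 (replicate 3, with the pancreas markers), and omitting a GR LKO library left 3, 4 or 1 (replicates 1, 2 and 3). Of the other 2 genes, *Cyp2c39* was called without WT replicate 2 and *Cyp2c40* without WT replicate 3. In a joint fit of all cal. res. libraries of the series, *Cyp2c37* (adjusted p = 0.0811) and *Cyp2c38* (0.0588) were not called at ZT12. The 8 genes kept their direction in all 6 omissions, and *Cyp2c29* kept its call in 5 of the 6 omissions (adjusted p = 0.0526 without GR LKO replicate 3). At this time point, scaling by library size alone moved the median of all genes to 0.16 and the share of higher genes among those called from 48.6% to 77.2%, and it called 6 of the 10 genes, without *Cyp2c50* (adjusted p = 0.198) and *Cyp2c70* (0.0561). *Cyp2c50* was not called without the low-count filter either (0.0629). The hepatocyte markers, of which 4 of 7 were lower, summed to 174540, 170600 and 179100 CPM in WT and to 134540, 144190 and 126240 CPM in GR LKO. Kupffer and myeloid markers, of which 4 of 8 were higher and *Clec4f* was the most abundant, summed to 39.5, 63.6 and 46.8 CPM in WT and to 104.5, 87.2 and 114 CPM in GR LKO. Endothelial markers, with 1 of 6 higher and *Clec4g* the most abundant, summed to 164, 149 and 179 CPM and to 212, 198 and 220 CPM, without overlap. Of the erythrocyte markers 1 of 4 was higher (459, 360 and 274 CPM against 648, 467 and 359 CPM, *Hbb-bs*), and of the cholangiocyte markers 1 of 3 tested was lower (26.4, 31.2 and 28.9 CPM against 31.4, 32.4 and 31.7 CPM, *Spp1*). Their part in the *Cyp2c* differences was not tested.

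Later in the night on cal. res., *Cyp2c44* and *Cyp2c70* were called again. At ZT16, 2 of 10 genes were called, against 4.54% of all genes: *Cyp2c44* with 160, 168 and 206 CPM in WT and 325, 291 and 277 CPM in GR LKO (0.75 ± 0.12, adjusted p = 0.0162), and *Cyp2c70* with 326, 468 and 289 CPM and 155, 151 and 185 CPM (-1.14 ± 0.18, adjusted p = 0.0165). The groups did not overlap in either gene. The *Cyp2c44* call was lost without WT replicate 1 (adjusted p = 0.0705), WT replicate 2 (0.0581), GR LKO replicate 1 (0.0502) or GR LKO replicate 2 (0.0505), and the *Cyp2c70* call without GR LKO replicate 1 (0.0600) or replicate 2 (0.0644). At ZT20, 3 of 10 were called, against 1.47% of all genes. *Cyp2c44* was higher (0.66 ± 0.11, adjusted p = 0.0351, called in 1 of 6 omissions of a library, that of GR LKO replicate 1) and *Cyp2c70* lower (-0.83 ± 0.15, adjusted p = 0.0494, called in none of the 6, where the adjusted p ran from 0.0649 to 0.184). Of the cell type markers, 1 of 7 hepatocyte markers was lower and 1 of 2 intestinal, 1 of 2 adipocyte and 1 of 4 erythrocyte markers were higher at ZT16, and 1 of 2 adipocyte markers at ZT20, and their part was not tested. At ZT0, ZT4 and ZT8 edgeR called 0 of 10, against 0.502%, 0.690% and 2.55% of all genes. There the counts at an unadjusted p under 0.05 were 5, 1 and 5 (13.2%, 14.6% and 17.3% of all genes), and DESeq2 called 4, 1 and 0 (3.06%, 3.44% and 5.27%). The 4 at ZT0 were *Cyp2c50*, *Cyp2c54*, *Cyp2c55* and *Cyp2c70*, and the 1 at ZT4 was *Cyp2c54*. The joint fit called *Cyp2c50* at ZT0 and *Cyp2c55* at ZT8.

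*Cyp2c40* was the third gene called at ZT20 on cal. res., and it behaved unlike the others. At that hour its 3 WT libraries held 131, 103 and 95.5 CPM and its 3 GR LKO libraries 2.47, 2.77 and 0.640 CPM. The groups lay far apart (log2 difference -5.77 ± 0.39, adjusted p = 0.00321), and the call held in all 6 omissions of a library. Summed with its close copies *Cyp2c67*, *Cyp2c68* and *Cyp2c69*, it went from 1085 CPM to 692 CPM without a call (-0.64 ± 0.15, adjusted p = 0.0905). The difference of *Cyp2c40* did not extend over the day. At ZT12 the WT levels were 0.842, 16.9 and 100 CPM and the GR LKO levels 118, 144 and 135 CPM, higher in GR LKO without overlap and without a call (1.74, adjusted p = 0.314), but called when the WT library with 100 CPM, the one with the pancreas markers, was left out. Over the 18 WT libraries on cal. res. it ranged from 0.748 to 228 CPM (median 97.8), with 2 libraries at or below 5 CPM and 14 above 50 CPM, and over the 18 GR LKO libraries from 0.640 to 264 CPM (median 117), with 4 at or below 5 CPM and 13 above 50 CPM. Low and high libraries occurred within single groups, as at ZT12 in WT. The average over the day was not called (-0.41 ± 0.42, adjusted p = 0.495).

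On ctrl. *Cyp2c40* was low in most livers: 21 of 22 WT libraries and 17 of 20 GR LKO libraries held at most 5 CPM, with medians of 1.61 and 0.886 CPM. The exceptions reached 18 CPM in 1 WT library at ZT4, 49.3 CPM in 1 GR LKO library at ZT8, and 27.0 and 18.4 CPM in 2 GR LKO libraries at ZT12. Its close copy *Cyp2c69* was also low on ctrl. (WT median 0.824 CPM, GR LKO median 4.47 CPM, average difference 2.48, adjusted p = 0.000405). On cal. res. the *Cyp2c69* medians were 45.7 and 83.5 CPM (0.72, adjusted p = 0.121). The summed counts of *Cyp2c40*, *Cyp2c67*, *Cyp2c68* and *Cyp2c69* went from 590 CPM (WT) to 457 CPM (GR LKO) on ctrl. (-0.37 ± 0.07, adjusted p = 7.07e-05) and from 1015 to 954 CPM on cal. res. (-0.12 ± 0.07, adjusted p = 0.231). *Cyp2c67* took part in that fall on ctrl., from 383 to 273 CPM (-0.48, adjusted p = 3.5e-06).

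**Figure D3:**
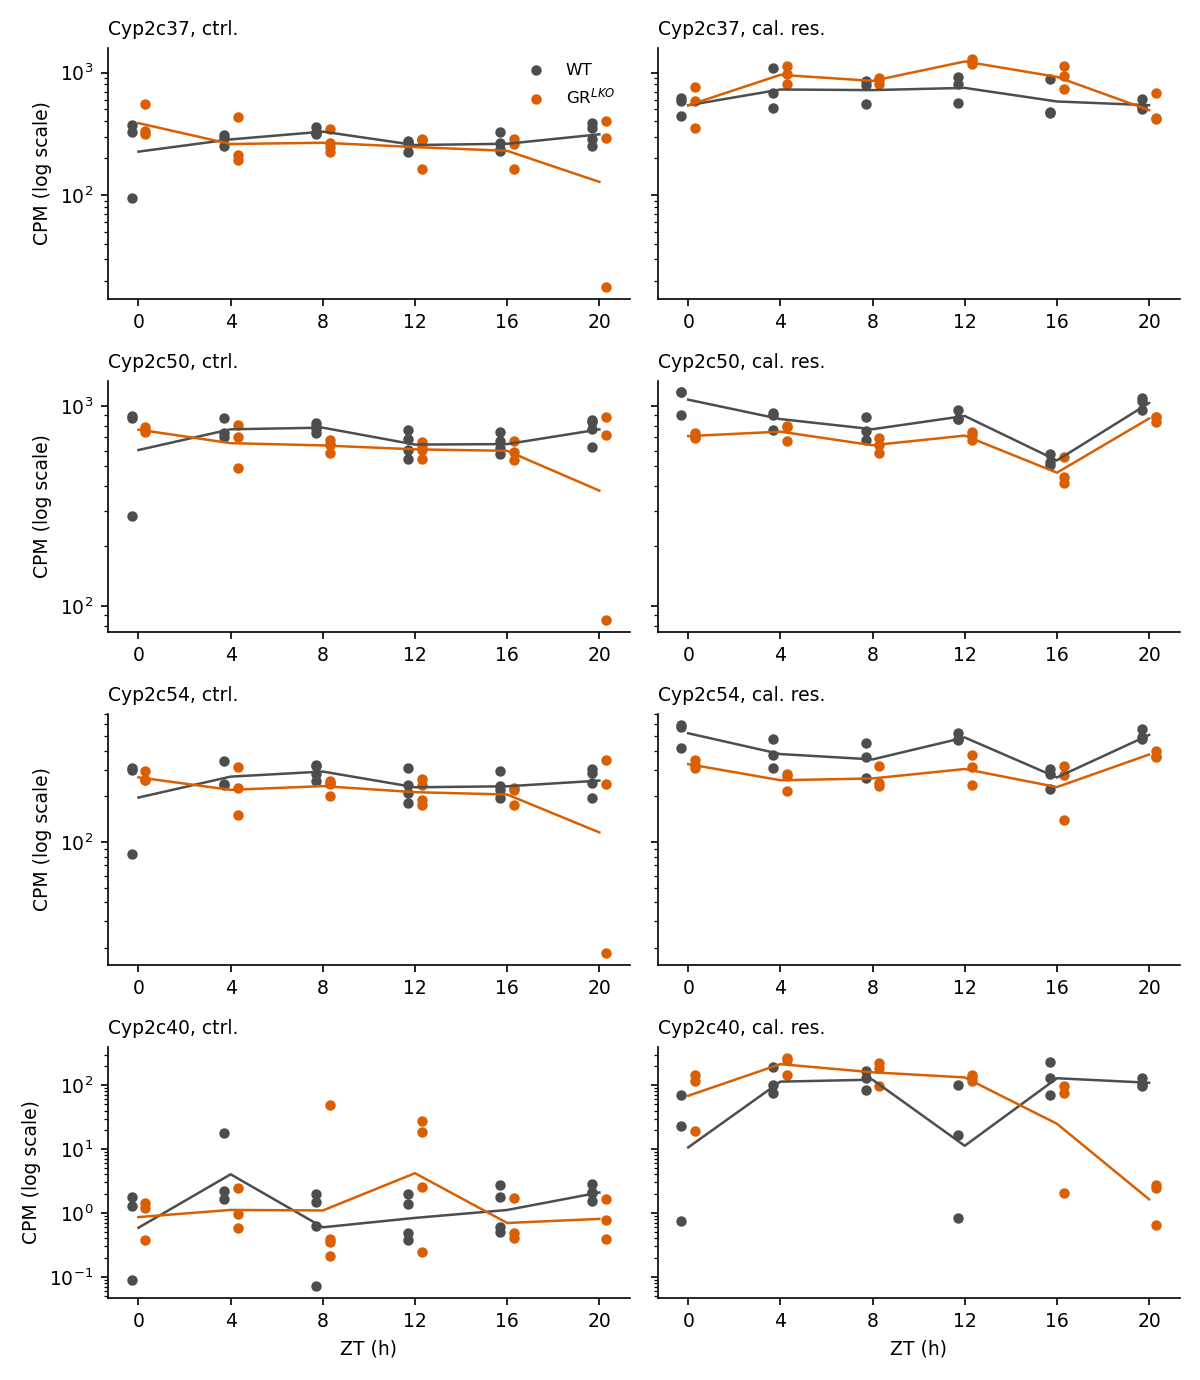
Level (CPM, log axis) of *Cyp2c37*, *Cyp2c50*, *Cyp2c54* and *Cyp2c40* over the 6 time points in WT and GR LKO liver, ctrl. on the left and cal. res. on the right, with 1 point per library and a line through the geometric means of 3 or 4 libraries. The low points at ctrl. ZT20 (GR LKO) and ZT0 (WT) are the 2 libraries that stood apart in the first 3 genes, and *Cyp2c40* on cal. res. shows libraries near 1 CPM beside libraries above 50 CPM.

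Single time points on ctrl. gave few calls. At ZT12, 1 of 10 genes was called, against 2.08% of all genes: *Cyp2c38*, with 20.6, 18.2, 13.7 and 15.4 CPM in WT and 39.2, 37.1, 53.7 and 39.8 CPM in GR LKO. The groups did not overlap (log2 difference 1.33 ± 0.16, adjusted p = 0.00313), and the call held in all 8 omissions of a library. Hepatocyte markers there, with 3 of 7 lower, summed to 86576, 103490, 85306 and 96982 CPM in WT and to 73421, 69792, 76868 and 90411 CPM in GR LKO (*Alb*). Adipocyte markers, with 1 of 3 higher, summed to 8.68, 6.39, 4.15 and 6.22 CPM (*Fabp4*) and to 8.37, 10.7, 88.3 and 15.9 CPM (*Cidec*). The GR LKO library with 88.3 CPM was also the one with 53.7 CPM of *Cyp2c38*. At ZT8, 2 of 3 adipocyte markers were higher. The part of these markers was not tested. At ZT8, 1 of the 9 genes tested was called, against 1.43%, *Cyp2c50* at -0.29 (adjusted p = 0.0476). That call was lost in 7 of 8 omissions of a library, all but that of WT replicate 4, with adjusted p from 0.0581 to 0.155, as it was without the low-count filter (0.0675) and in the joint fit (-0.29 ± 0.33, adjusted p = 0.954). At an unadjusted p under 0.05 there were 8 of the 9 at ZT8 (11.2% of all genes), and DESeq2 called 5 (2.77%): *Cyp2c29*, *Cyp2c38*, *Cyp2c50*, *Cyp2c54* and *Cyp2c55*. At ZT0, ZT4, ZT16 and ZT20 edgeR called 0 of 10, against 0.536%, 0.195%, 1.98% and 0.420% of all genes. The counts at an unadjusted p under 0.05 were 3, 4, 3 and 3 (15.3%, 9.75%, 16.6% and 11.3% of all genes), and DESeq2 called 1, 0, 3 and 3 (3.03%, 1.53%, 5.08% and 2.13%). The DESeq2 calls at ZT16 were *Cyp2c44*, *Cyp2c55* and *Cyp2c70*, and those at ZT20 were *Cyp2c38*, *Cyp2c55* and *Cyp2c70*. The joint fit called *Cyp2c44* and *Cyp2c70* at ZT16 and the same 3 genes as DESeq2 at ZT20. In each of the calls at ZT16 and ZT20 the direction was that of the average over the day.

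Daily rhythms were sought with the JTK test at a period of 24 h, in each diet and genotype. On ctrl. in WT, 3 of 10 genes were rhythmic (adjusted p under 0.05 and an amplitude over 0.1 on the variance-stabilised log2 scale), against 38.6% of all genes tested. *Cyp2c44* peaked at ZT12 (adjusted p = 0.00105, amplitude 0.36), with mean levels from 312 CPM at ZT0 to 473 CPM at ZT12. *Cyp2c70* peaked at ZT20 (adjusted p = 0.00935, amplitude 0.55), from 324 CPM at ZT8 to 782 CPM at ZT20, and *Cyp2c38* at ZT4 (adjusted p = 0.00675, amplitude 0.47). On ctrl. in GR LKO, 2 of 10 were rhythmic, against 33.3%: *Cyp2c44*, again with a peak at ZT12 (adjusted p = 0.000561, amplitude 0.33), and *Cyp2c39* (peak ZT4, adjusted p = 0.0288). *Cyp2c70* did not pass there (adjusted p = 0.323), and its means ran from 234 to 334 CPM. The difference in rhythm between genotypes was not tested.

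On cal. res. in WT, 1 of 10 genes was rhythmic, against 34.7% of all genes, *Cyp2c38* with a peak at ZT8 (adjusted p = 0.00506, amplitude 0.43). In GR LKO on cal. res., 4 of 10 were rhythmic, against 30%: *Cyp2c38* (peak ZT8, adjusted p = 0.0124), *Cyp2c40* (peak ZT8, adjusted p = 0.0124, amplitude 1.03), *Cyp2c37* (peak ZT12, adjusted p = 0.0159) and *Cyp2c70* (peak ZT4, adjusted p = 0.0260). The JTK peak of *Cyp2c38* lay in the light phase in each set in which it passed. Its highest mean in GR LKO on cal. res. was at ZT12, however (178 CPM). Leaving out 1 replicate of every time point moved the 4 counts to between 1 and 3, 1 and 2, 0 and 1, and 0 and 1, in the order given here, so that none of the calls on cal. res. held throughout. In the same order, a limma test gave 5, 4, 5 and 5 rhythmic genes, against 52.8%, 48.7%, 52.9% and 49.3% of all genes.

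Genes that varied most like the 10 were taken from outside the subfamily as the highest Pearson r of log2 CPM over the libraries of one diet (36 on cal. res., 42 on ctrl.), as a description over libraries that share genotype and time. On cal. res. *Cyp2c38* varied most like *Zc3h14* (r 0.85, Spearman rho 0.89) and *Cux2* (0.85, rho 0.81), the latter a gene known for higher expression in female liver. *Cyp2c44* varied most like *Bdh1* (0.85, rho 0.82), *Cyp2c50* like *Ndrg1* (0.87, rho 0.83), *Cyp2c54* like *Mug1* (0.88, rho 0.87) and *Cyp2c70* like *Gstm7* (0.80, rho 0.75). On ctrl. *Cyp2c38* varied most like *Rdh16* (0.89, rho 0.91), *Cyp2c44* like *1810058I24Rik* (0.90, rho 0.89) and *Ugt2b36* (0.88, rho 0.90), and *Cyp2c70* like *Urad* (0.82, rho 0.83). *Cyp2c37*, *Cyp2c50* and *Cyp2c54* on ctrl. all had *Susd4* as the nearest gene, with r from 0.85 to 0.88 but rho from 0.17 to 0.29, so that these r rest on few libraries. *Cyp2c70* ran against *Cyp2c55* (r -0.65 on ctrl., -0.46 on cal. res.) and against *Cyp2c44* (r -0.59 on ctrl., -0.60 on cal. res.).

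Counts of the gene lists below stand against 47.1% of all genes called in the diet experiment, 8.11% with CORT, 32.9% and 18.6% without GR on cal. res. and on ctrl., and 3.01% in the interaction. Among 8 partners of P450 enzymes (heme supply and electron transfer), 2 were higher and 2 lower on cal. res. in the diet experiment, with *Alas1*, the first enzyme of heme synthesis, falling from 1228 to 503 CPM (-1.29, adjusted p = 0.000237) and *Hmox1*, which degrades heme, rising from 7.74 to 17.8 CPM. CORT raised 2 of the 8: *Alas1* (372 to 1413 CPM, adjusted p = 0.00456) and *Por*, the P450 reductase (297 to 774 CPM, adjusted p = 0.0200). Loss of GR lowered *Por* on cal. res. (500 to 326 CPM, -0.45, adjusted p = 1.2e-05), where 4 of the 8 were higher and 2 lower, and on ctrl. 4 were higher and 0 lower by edgeR. Of 12 nuclear receptors and other factors known to act on such genes, 4 were higher and 3 lower on cal. res. (*Cebpb* 0.71, *Hnf4a* 0.69), 4 higher and 2 lower on CORT (*Cebpb* 2.04, *Ahr* 1.79), 2 higher and 3 lower without GR on cal. res. (*Cebpb* -0.52, *Ahr* -0.40) and 1 higher and 2 lower on ctrl. (*Nfe2l2* 0.28, *Ahr* -0.27).

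Other enzymes of fatty acid epoxides and hydroxylation counted 2 higher and 5 lower of 12 in the diet experiment, led by *Cyp4a12a* (-7.92) and *Cyp4a12b* (-7.11), and 1 higher and 1 lower on CORT. Without GR they counted 4 higher and 2 lower on cal. res. (*Cyp4a12a* 1.36, *Cyp4f14* -0.55) and 5 higher and 2 lower on ctrl. (*Cyp4a14* 1.73, *Cyp4a10* 1.35). Among 11 genes of bile acid synthesis, the pathway of *Cyp2c70*, 3 were higher and 6 lower on cal. res. in the diet experiment (*Cyp7b1* -2.97, *Cyp8b1* -2.10), where *Cyp2c70* itself was not called. With CORT, which lowered *Cyp2c70*, edgeR called 0 of the 11, and their median log2 fold change was -0.11 (-0.01 for all genes). Without GR, 5 of the 11 fell on cal. res. (*Cyp7b1* -0.63, *Cyp27a1* -0.63) and 3 on ctrl. (*Cyp7b1* -0.93, *Acox2* -0.22), with *Cyp2c70* lower on both.

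Genes known for a sex bias in liver moved with the diet beside *Cyp2c38* to *Cyp2c40*: all 11 tested female-biased genes were higher and all 14 male-biased genes lower on cal. res. in the diet experiment, with median log2 fold changes of 4.03 and -4.24 (0.00 for all genes). Of these 14 female-biased genes, 3 were too low to test in the diet experiment and 10 in the CORT experiment. CORT called 0 of 4 and 0 of 14 by edgeR. The male-biased list shares *Cyp4a12a* with the fatty acid list and *Cyp7b1* with the bile acid list, so the counts of these lists are not independent. Without GR, 8 of 14 tested female-biased genes were higher and 2 lower on cal. res., and 8 of 11 were higher and 1 lower on ctrl., while male-biased genes counted 2 higher and 6 lower of 13, and 1 higher and 10 lower of 14. A gene low in one group enters the test through the other group only, so the shares of tested female-biased genes depend on the low-count filter. Without the filter, 11 of 14 were higher and edgeR called 0 lower in the diet experiment, with a median log2 fold change of 3.25 over the 14. Without GR, again without the filter, 8 were higher and 2 lower of 14 on cal. res., and 8 higher and 1 lower of 14 on ctrl. In these 3 comparisons 31.8%, 20.1% and 10.7% of all genes were called. Lists of hepatocyte zones gave 1 higher and 5 lower of 11 pericentral genes and 7 higher and 2 lower of 10 periportal genes in the diet experiment. With CORT they gave 1 higher and 2 lower, and 2 higher and 1 lower. Without GR, 5 pericentral genes were lower and edgeR called 0 higher on cal. res., with 1 higher and 4 lower on ctrl., and of the periportal genes 7 were lower on each diet, with 1 higher on cal. res. The interaction was called for *Por* (-0.42, adjusted p = 0.00967), *Cebpb* (-0.62, 0.0100) and *Cyp27a1* (-0.43, 1.96e-06) as the 1 gene of the partner, regulator and bile acid lists, and for 5 of the 12 fatty acid genes, 4 of them lower. It was also called for 3 of 14 female-biased genes (all lower, *Cyp2b9* -4.59 and *Cyp17a1* -2.30), 1 of 14 male-biased genes (*Slco1a1* -1.80) and 2 of 11 pericentral genes (*Axin2* -0.56, *Gulo* -0.34), and for 0 of 10 periportal genes by edgeR.

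Promoters were searched for motifs because some members that moved together, such as *Cyp2c38* and *Cyp2c39*, lie side by side, while others do not. RefSeq promoter windows (GRCm38.p6, 250 bases before to 50 after each start, 300 in all) were found for 8 of the 10 genes and none for *Cyp2c44* and *Cyp2c54*, and the subfamily has 14 such windows for 13 genes. Some of these windows are close copies of each other, such as those of *Cyp2c40*, *Cyp2c67*, *Cyp2c68* and *Cyp2c69*. Matches in such copies are not independent, so the counts of windows below overstate the number of separate matches. CAAAGTCCA, a form of the site of the liver factor HNF4A, searched on both strands, occurred in 6 of the 14 windows (*Cyp2c40*, *Cyp2c65*, *Cyp2c67*, *Cyp2c68*, *Cyp2c69* and *Cyp2c70*) and in 0.475% of all 32851 promoter windows. The 2 members with it are shown, *Cyp2c40* at chr19:39812765-39813064 on the minus strand and *Cyp2c70* at chr19:40187237-40187536 on the minus strand, in lower case with these letters in capitals.
Cyp2c40: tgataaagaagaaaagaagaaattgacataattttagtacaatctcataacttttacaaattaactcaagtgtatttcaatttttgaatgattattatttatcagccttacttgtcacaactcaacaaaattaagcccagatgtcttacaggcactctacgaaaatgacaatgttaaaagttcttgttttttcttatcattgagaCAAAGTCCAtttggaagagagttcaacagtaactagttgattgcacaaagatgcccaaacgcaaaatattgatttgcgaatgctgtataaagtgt
Cyp2c70: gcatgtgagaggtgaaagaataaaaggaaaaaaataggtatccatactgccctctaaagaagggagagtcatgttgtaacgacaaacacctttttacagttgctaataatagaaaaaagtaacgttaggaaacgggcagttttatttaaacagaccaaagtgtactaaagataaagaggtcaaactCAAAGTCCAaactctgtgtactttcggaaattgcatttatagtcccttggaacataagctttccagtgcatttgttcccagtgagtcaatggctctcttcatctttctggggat

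*Cyp2c38* and *Cyp2c39*, the neighbours raised by cal. res. in the diet experiment and by the loss of GR on ctrl., carry TGTTTAC (a core of forkhead factor sites) and AGAACA (one arm of the glucocorticoid receptor's palindrome) in their windows. TGTTTAC occurred in 3 of the 14 windows, all of these genes and close copies of each other, and in 3.65% of all windows. AGAACA occurred in 3 of the 14 (*Cyp2c38*, *Cyp2c39* and *Cyp2c50*) and in 19.0% of all. That is about the same share, so AGAACA does not set these genes apart. The second window of *Cyp2c39* holds TGTTTAC and no AGAACA. The windows shown are chr19:39463026-39463325 on the minus strand for *Cyp2c38* and chr19:39510572-39510871 on the plus strand for *Cyp2c39*, with the matches to both motifs in capitals.
Cyp2c38: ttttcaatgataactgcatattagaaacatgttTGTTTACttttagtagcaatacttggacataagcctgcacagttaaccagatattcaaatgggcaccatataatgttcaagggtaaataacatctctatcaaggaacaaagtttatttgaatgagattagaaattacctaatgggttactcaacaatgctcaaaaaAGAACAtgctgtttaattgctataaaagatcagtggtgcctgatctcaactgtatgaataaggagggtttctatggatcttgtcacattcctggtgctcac
Cyp2c39: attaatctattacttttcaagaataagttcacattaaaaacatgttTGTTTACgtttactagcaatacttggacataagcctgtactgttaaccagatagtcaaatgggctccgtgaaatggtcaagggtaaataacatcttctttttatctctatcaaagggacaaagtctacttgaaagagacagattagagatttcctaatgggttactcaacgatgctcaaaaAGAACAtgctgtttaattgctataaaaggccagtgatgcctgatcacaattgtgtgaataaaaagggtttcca

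The full palindrome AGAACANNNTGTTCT occurred in none of the 14 windows and in 0.00913% of all, and TTCNNNGAA, the letters of STAT factor sites, in none of the 14 and in 8.30% of all. TTGCGCAA (C/EBP factors) and ATCGAT (HNF6) were likewise in none of the 14, and in 0.183% and 0.925% of all. TATAAA occurred in 10 of the 14 and in 13.6% of all. A match describes the letters of the window only, and whether any factor binds there was not tested.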

How the data were processed

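The authors checked reads with FastQC, quantified them with Salmon and summed transcripts to genes with tximport, and they deposited estimated counts per gene without normalisation. The labels name mm10, and the transcript annotation is not stated. Estimated counts were rounded and tested with edgeR 4.0.16 (quasi-likelihood, TMM, filterByExpr with a minimum count of 10, Benjamini-Hochberg adjusted p under 0.05 over all genes tested), in R 4.3.3. Alternatives were DESeq2 1.42.0, no low-count filter, library size scaling, a replicate block, summed paralogs, a joint fit and leaving out libraries. Rhythms were tested with JTK (exact null, period 24 h, 6 phases, DESeq2 variance-stabilised counts), and with limma 3.58.1 as the alternative. CPM use TMM factors per table, and log2 CPM a prior of 2. The 10 genes and the gene lists were chosen with earlier results of these data known. Pathway genes named are those called with the largest change, at most 2 per list and comparison, with at least 5 CPM in 1 group, and the genes most alike are at most 3 per gene. Leaving out 2 ctrl. libraries was decided after seeing the data. A deposited table of transformed values for the CORT experiment (6 columns) was not used. One result that the naming rule would give is not reported here.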

Additional observations from a re-analysis of the deposited data

Results flagged for a closer look

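Single libraries far from the rest of their group were sought with Dixon's ratio among 60 sets of 4 libraries, each 1 gene in 1 group of the ctrl. series. The search found 4. Chance gives about 1 in 20 sets, so that 4 of 60 is close to the number from chance alone. *Cyp2c40* stood at 49.3 CPM in ZT8 GR LKO replicate 2, against 0.212 to 0.393 CPM in the other libraries of that group. *Cyp2c70* stood at 562 CPM in ZT12 WT replicate 4, against 273 to 311 CPM. In ZT12 GR LKO replicate 3, *Cyp2c37* was 163 CPM, against 281 to 286 CPM, and *Cyp2c38* was 53.7 CPM, against 37.1 to 39.8 CPM. That library also had the highest sum of adipocyte markers in its group. Groups of 3 libraries were not searched in this way, so the livers with little *Cyp2c37* at ctrl. ZT20 and ZT0 are not among these.

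The effect of GR loss differed between the diets, by a test of the difference itself over 78 libraries, for *Cyp2c44* (log2 difference 0.32, more raised on cal. res.), *Cyp2c38* (-0.62) and *Cyp2c39* (-0.98), both with the lower difference on cal. res. None of these was called without replicate 1 of every group, where the adjusted p was 0.175, 0.0755 and 0.181. The cause of these differences was not tested, and diet and batch cannot be told apart in them.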

How the results depend on the processing

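For the single genes, 506 of the recomputed values kept their direction and their side of the threshold, 94 fell below it, 5 passed it and 24 changed direction. With DESeq2, all 65 kept both. Genes at single time points enter these values only if called with all libraries, so calls gained there show in the counts alone. The diet experiment gave 7 of 10 genes under every alternative but summed paralogs (9, the genes of 5 called units of 6) and omitted libraries (5 to 8). With time series livers the 7 were others, with *Cyp2c50* and *Cyp2c54* in place of *Cyp2c29* and *Cyp2c55*. For the other counts, the cause of the changes was not tested. GR loss on cal. res. gave 13 calls over the 6 time points, 21 with DESeq2 and 6 to 15 without 1 library. On ctrl. it gave 2, 13 with DESeq2, 4 with library size scaling, 6 in a joint fit, 0 in edgeR with summed paralogs (where fewer units are tested) and 1 to 3 without 1 library. CORT gave 1, and 0 to 4 by edgeR without 1 library. With summed paralogs, counting each gene of a called sum, the day average on cal. res. went from 6 to 3 and the interaction from 3 to 1, and by edgeR the latter was 0 to 3 without 1 replicate. Rhythmic genes by limma were 5, 4 and 5 in ctrl. WT, ctrl. GR LKO and cal. res. WT, against 3, 2 and 1 by JTK. Leaving out 1 replicate gave 1 to 3, 1 to 2, 0 to 1 and, in cal. res. GR LKO, 0 to 1 against 4.

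With the replicate block, the 2 time-point counts were 6 and 1, and the interaction count was 2. There *Cyp2c39* with CORT was -0.20 and *Cyp2c40* in the ctrl. average -0.18. No clear pairing by replicate number was seen: no comparison had every same-number pair correlated above 0.1. At ctrl. ZT16 all 3 libraries correlated best with the library of their own number, at r from 0.02 to 0.10, so the check cannot exclude a weak pairing.

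With other WT livers at ZT12, the diet difference was -0.0365 for *Cyp2c29*, 0.45 for *Cyp2c50* and 1.05 for *Cyp2c54*. *Cyp2c39* with CORT was -0.0309 under library size scaling. The following were not called with all libraries and changed sign when 1 library or replicate was left out. For diet, *Cyp2c50* ran from -0.46 to 0.0416, *Cyp2c54* from -1.43 to 0.26 and *Cyp2c70* from -0.24 to 0.17. With CORT, *Cyp2c29* ran from -0.23 to 0.0416, *Cyp2c39* from -1.23 to 0.49, *Cyp2c44* from -0.14 to 0.11 and *Cyp2c55* from -1.45 to 0.12. In the ctrl. average, *Cyp2c37* ran from -0.23 to 0.14 and *Cyp2c40* from -0.30 to 0.57. In the interaction, *Cyp2c40* ran from -1.11 to 0.0109 and *Cyp2c50* from -0.31 to 0.00470. Leaving out the 2 ctrl. libraries low in *Cyp2c37*, an alternative chosen after seeing the data, kept all 20 values on their side. Groups of 3 limit what single time points can show, and the split of reads among close copies rests on Salmon. The 2 diets of the series come from separate batches, so that in the ZT12 comparison of their WT livers diet and batch cannot be told apart. The same holds for the interaction, where only a shift common to both genotypes drops out.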
